A study of Mus musculus with 6 samples.

Results

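The mitochondrial carriers of the Slc25 family were followed in mouse primary renal tubular epithelial cells (TECs) after knockdown of the transcription factor Sox9. The members were the protein-coding genes named Slc25a followed by a number, which gave 47 of the 30315 genes listed (18062 of them protein-coding). The 6 RNA-Seq libraries were 3 of cells given siSox9, which is a small interfering RNA (siRNA) directed at Sox9, and 3 of cells given the control siRNA siNC. All cells were C57BL/6 kidney TECs in culture, transfected with EndoFectin Max 12 h before hypoxia/reoxygenation (H/R), in which they spent 6 h without glucose at 1% oxygen and then 18 h in complete medium. Every library was therefore from injured cells, no uninjured cells were measured, and 1 siRNA against Sox9 was used. The labels do not say whether replicates came from separate cultures or animals, so p-values measure the spread between these libraries, which may be technical.

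Carriers of this family sit mostly in the inner mitochondrial membrane, where each exchanges a small set of solutes between the matrix and the space outside it: ADP for ATP, phosphate, citrate, amino acids, cofactors or iron. They are encoded in the nucleus, made in the cytosol and inserted by the TIM22 complex. Tubular cells depend on mitochondrial ATP for transport, and several carriers of the family, the kidney carrier Slc25a30 among them, are known from renal tissue. The deposited annotation lists the mitochondrial carrier domain for 46 of the 47 members; the exception, Slc25a35, is listed with the Mog1 domain, and 31.3% of its exon length is overlapped by Rangrf on the opposite strand.

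Sox9 itself was at 8.93, 8.61 and 9.07 FPKM in the siSox9 libraries and at 25.7, 26.5 and 25.6 FPKM in the siNC libraries, where FPKM are reads scaled to exon length and to the depth of the library. The knockdown thus left 34.2% of the control level (log2 fold change -1.45). Depth was close, with 23893198 to 25725743 reads recovered per library. Tubule epithelium markers such as Krt8 and Epcam were high in both groups. By the test given below, 1 of the 8, Cdh16, rose (0.36), as did 12.8% of all genes tested. Of 6 proximal tubule markers, 1 passed the filter on low values. Leukocyte markers summed to 22.8 to 25.7 FPKM with siSox9 and 23.1 to 24.2 FPKM with siNC, and endothelial ones to 2.76 to 2.99 and 3.16 to 4.01 FPKM. Fibroblast and mural markers, mainly Acta2, summed to 661.5 to 714.8 and 712 to 750.7 FPKM. All 4 markers of dividing cells fell, where 17.6% of all genes tested fell. The sum of these markers was 59.4 to 65.2 FPKM with siSox9 and 86.2 to 88.9 FPKM with siNC. The part of dividing cells in the results below was not tested, and in bulk RNA fewer cells of a kind and less RNA per cell cannot be told apart.

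The summed level of the 47 members overlapped between groups. The largest changes were falls of Slc25a48, Slc25a15 and Slc25a23, which are of low level, a fall of Slc25a30 and a rise of the citrate carrier Slc25a1. Summed over all 47 members, the siSox9 libraries held 813.8, 819.7 and 840.6 FPKM, and the siNC libraries 823.4, 840 and 843.9 FPKM. These ranges overlapped. Of the 38 members with a mean of at least 1 FPKM over the 6 libraries, 10 passed limma's test on log2(FPKM + 1) at an adjusted p under 0.05, of which 3 rose (Slc25a1, Slc25a3 and Slc25a16) and 7 fell (Slc25a4, Slc25a15, Slc25a23, Slc25a24, Slc25a29, Slc25a30 and Slc25a48). That is 26.3% of the tested members, where 30.4% of all 12009 genes tested passed. By direction, 7.89% of members rose and 18.4% fell, against 12.8% and 17.6% of all genes. The share of carriers that passed was thus near the background over all genes. The counts by role below cover few members each and are to be read beside these shares.

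The sizes were also like those of other genes. The median log2 fold change was 0.0005 over the tested members and -0.014 over all genes tested, and the median absolute value was 0.0906 and 0.11. Exactly 19 members lay above 0 and 19 below. In 16 members (42.1%) the 3 siSox9 values and the 3 siNC values did not overlap, which was so for 46.3% of all genes tested. The added 1 on the log scale shrinks the fold change of weakly expressed carriers, so levels are given in FPKM as well.

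**Figure D1:**
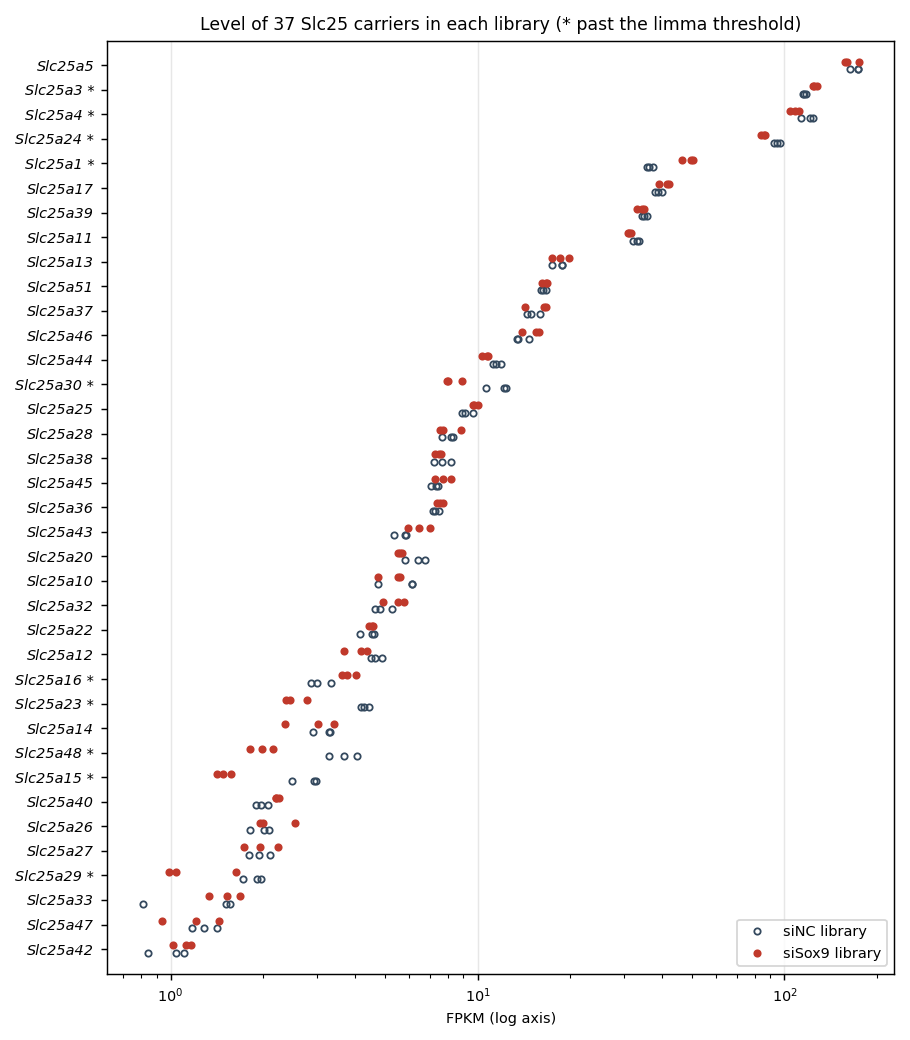
FPKM on a log axis of 37 of the 38 tested carriers in each of the 6 libraries, ordered by mean level, with open points for siNC and filled points for siSox9. Slc25a5, Slc25a3, Slc25a4 and Slc25a24 lie to the right of the rest, and the widest gaps between groups are at Slc25a48, Slc25a15 and Slc25a23 in the lower part.

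A few carriers made up most of the RNA per length of the 47 members. Slc25a5, Slc25a3, Slc25a4, Slc25a24 and Slc25a1 summed to 532 ± 12.5 FPKM (SD, n = 3) in siSox9 cells and 536.6 ± 11.3 FPKM (SD, n = 3) in siNC cells. At the other end, 9 members had a mean under 1 FPKM and were not tested. The lowest tested member was Slc25a42, at 1.103 FPKM with siSox9 and 0.997 FPKM with siNC, and the highest untested one was Slc25a21, at 0.471 and 0.507 FPKM.

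Within the carriers of adenine nucleotides and phosphate, which bring ADP and phosphate to ATP synthase and export its product, ATP, 1 of 3 tested members rose and 1 fell. Slc25a3, the phosphate carrier, was at 123.6, 125.2 and 128.1 FPKM with siSox9 and 114.5, 117.4 and 115.7 FPKM with siNC, so that each siSox9 library was above each control (log2 fold change 0.12, adjusted p = 0.01999 from limma). It kept the direction but missed the threshold without siSox9 replicate 2 (limma adjusted p = 0.0727), siSox9 replicate 3 (0.0562) or siNC replicate 3 (0.0675), in a range of 0.00911 to 0.0727 over 15 alternatives.

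Slc25a4, the ADP/ATP carrier of heart and muscle, was at 104.1, 108.0 and 111.2 FPKM with siSox9 and 113.0, 121.1 and 124.1 FPKM with siNC. The highest siSox9 library lay just below the lowest control (log2 fold change -0.15, adjusted p = 0.0419 from limma). This call was lost in 9 of 15 alternatives, in which limma's adjusted p ran from 0.0116 to 0.13. It did not hold without siSox9 replicate 1 (0.13), 2 (0.109) or 3 (0.0514), nor without siNC replicate 2 (0.109) or 3 (0.13). Slc25a5, the ADP/ATP carrier of growing cells and the most abundant member, had overlapping groups, with 158 to 174.4 FPKM under siSox9 and 163.6 to 173.9 FPKM under siNC (-0.05, standard error 0.05). Its value is uncertain, since 72.3% of its transcript is shared with processed pseudogenes such as Gm5529, whereas no other tested member shares more than 18.75% (Slc25a43) with another gene at 95% identity or more. As a share of both ADP/ATP carriers, Slc25a4 was 39.4, 40.6 and 38.9% with siSox9 and 40.9, 41.1 and 41.6% with siNC. These shares did not overlap (exact permutation test, two-sided, p = 0.1, and no smaller p is possible with 3 libraries a group), but the uncertainty of Slc25a5 enters them. They also use the values behind the call of Slc25a4.

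The calcium-regulated ATP-Mg/phosphate carriers, which set the adenine nucleotide pool of the matrix, summed to 97.9 ± 1.095 FPKM (SD, n = 3) in siSox9 cells and 108.2 ± 2.50 FPKM (SD, n = 3) in siNC cells. Of 3 tested, 2 fell. Slc25a24, the dominant one, was at 84.1, 86.5 and 86.0 FPKM against 96.7, 94.8 and 92.5 FPKM in the controls (log2 fold change -0.14, adjusted p = 0.0104 from limma). Its call was lost only with values rescaled to TPM (limma adjusted p = 0.158), in a range of 0.00355 to 0.158 over 15 alternatives.

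Slc25a23 is far less abundant and fell further. It was at 2.78, 2.45 and 2.37 FPKM with siSox9 and at 4.44, 4.19 and 4.26 FPKM with siNC, from 300 to 379 and 535 to 584 recovered reads. No siSox9 library came near a control, and the mean was 59.0% of the control (log2 fold change -0.58, standard error 0.06, adjusted p = 0.000531 from limma). Slc25a25, the third of these carriers, was at 9.80 ± 0.184 FPKM (SD, n = 3) and 9.23 ± 0.410 FPKM (SD, n = 3) and did not pass. Of the RNA of Slc25a23, Slc25a24 and Slc25a25 together, Slc25a23 took 2.88, 2.48 and 2.41% with siSox9 and 4.01, 3.88 and 4.02% with siNC (exact permutation test, two-sided, p = 0.1, the smallest possible). The share of Slc25a23 uses the same values as its call. The mean share of Slc25a24 was 87.4% and 87.5%, with overlapping groups.

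Slc25a23 lies on the - strand of chromosome 17 from 57043711 to 57059863 (GRCm38), and 3.17% of its exon length is overlapped by Gm17168 on the opposite strand. The 250 bases before its RefSeq start (GRCm38.p6, chr17:57059864-57060113, - strand) are shown 5′ to 3′ because the gene kept its call in all 14 alternatives. Capitals mark a CCAAT box (CCAAT or its complement ATTGG) and a GC box (GGGCGG or CCGCCC), elements common in promoters; the 6-letter SOX core AACAAT was searched on both strands too and is not in this window.
Slc25a23: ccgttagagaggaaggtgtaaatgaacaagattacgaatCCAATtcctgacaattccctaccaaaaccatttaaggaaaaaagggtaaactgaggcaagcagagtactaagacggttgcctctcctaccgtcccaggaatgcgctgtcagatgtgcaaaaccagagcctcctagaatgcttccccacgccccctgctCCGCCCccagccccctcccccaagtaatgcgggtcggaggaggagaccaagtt

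Of the members related to uncoupling proteins, 1 of 3 fell. The uncoupling proteins Ucp1, Ucp2 and Ucp3 were not members, because of their symbols. Of these, Ucp2 was at 22.5 FPKM with siSox9 and 21 FPKM with siNC and did not pass (adjusted p = 0.0777 from limma). Slc25a30, known as kidney mitochondrial carrier protein, was at 8.89, 8.03 and 7.97 FPKM with siSox9 and 12.4, 12.2 and 10.7 FPKM with siNC. Every siSox9 library was below every control, and the mean was 70.7% of the control (log2 fold change -0.45, standard error 0.06, adjusted p = 0.00250 from limma). Its relatives Slc25a14, at 2.93 and 3.17 FPKM, and Slc25a27, at 1.98 and 1.95 FPKM, had overlapping groups. The call of Slc25a30 held in all 15 alternatives. The gene is on the - strand of chromosome 14 from 75761999 to 75787037, and the 250 bases before its start (GRCm38.p6, chr14:75787038-75787287, - strand), with capitals as above, hold 1 CCAAT box and 1 GC box.
Slc25a30: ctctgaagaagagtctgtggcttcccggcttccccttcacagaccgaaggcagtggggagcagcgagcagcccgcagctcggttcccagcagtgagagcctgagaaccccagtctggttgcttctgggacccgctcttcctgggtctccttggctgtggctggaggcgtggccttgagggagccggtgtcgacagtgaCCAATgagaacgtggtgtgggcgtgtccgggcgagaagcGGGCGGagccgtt

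The carriers of di- and tricarboxylates held the largest rise among tested members. Slc25a1, the citrate carrier that exports citrate for cytosolic acetyl-CoA and lipid synthesis, was at 49.7, 50.5 and 46.3 FPKM with siSox9 and 35.7, 36.3 and 37.2 FPKM with siNC. The groups stood well apart, with a mean of 134.2% of the control (log2 fold change 0.41, standard error 0.04, adjusted p = 0.000502 from limma). Slc25a1 rose in all 15 alternatives, with log2 fold changes of 0.39 to 0.45.

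Its neighbours in function did not pass. Slc25a11, the 2-oxoglutarate carrier of the malate-aspartate shuttle, was at 30.9 to 31.6 FPKM with siSox9 and 32.2 to 33.5 FPKM with siNC, and 8.92% of its exon length is overlapped by Rnf167 on the opposite strand (log2 fold change -0.07, adjusted p = 0.102 from limma). Slc25a10, the dicarboxylate carrier, was at 5.27 and 5.65 FPKM, with overlapping groups. Slc25a1 made up 57.7, 57.9 and 56.0% of the RNA of these carriers in the siSox9 libraries and 47.7, 49.6 and 48.4% in the siNC libraries (exact permutation test, two-sided, p = 0.1). This share uses the same values as the call of Slc25a1. In other pairs of related carriers, the shares of Slc25a12, Slc25a16, Slc25a37, Slc25a33 and Slc25a15 overlapped between groups. That of Slc25a39 beside Slc25a40 did not. The sum of the group, with the untested Slc25a21, was 85.8 ± 2.33 FPKM (SD, n = 3) in siSox9 cells and 75.5 ± 1.81 FPKM (SD, n = 3) in siNC cells.

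Slc25a1 is listed on the - strand of chromosome 16 from 17925211 to 17928219. The 250 bases before its RefSeq start (GRCm38.p6, chr16:17928220-17928469, - strand) are GC-rich, at 70.0% G and C, with 1 CCAAT box and 4 GC boxes in capitals.
Slc25a1: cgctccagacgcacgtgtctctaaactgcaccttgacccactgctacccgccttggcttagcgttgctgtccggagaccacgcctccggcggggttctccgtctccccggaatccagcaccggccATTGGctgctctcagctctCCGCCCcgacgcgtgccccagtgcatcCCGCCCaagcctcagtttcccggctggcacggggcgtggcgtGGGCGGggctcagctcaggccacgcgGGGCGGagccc

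None of the 3 tested carriers of aspartate and glutamate passed. Slc25a13, the aspartate/glutamate carrier of liver and kidney, was at 18.6 ± 1.21 FPKM (SD, n = 3) in siSox9 cells and 18.4 ± 0.782 FPKM (SD, n = 3) in siNC cells. Slc25a12, its paralog, was at 3.67 to 4.35 FPKM with siSox9 and 4.48 to 4.88 FPKM with siNC, without overlap but short of the threshold (log2 fold change -0.16, adjusted p = 0.0826 from limma). The glutamate carrier Slc25a22 differed by 0.02.

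The carriers of other amino acids, carnitine and glutathione formed the largest group, and 3 of its 10 tested members fell while none rose. Over all genes tested, 17.6% fell and 12.8% rose. Their sum was 73.6 ± 0.492 FPKM (SD, n = 3) in siSox9 cells and 79.5 ± 0.355 FPKM (SD, n = 3) in siNC cells. Slc25a48, a carrier linked to mitochondrial choline uptake, was at 1.82, 1.98 and 2.16 FPKM with siSox9 and 4.06, 3.29 and 3.66 FPKM with siNC. That is 158 to 174 against 268 to 340 recovered reads, with no overlap and a mean of 54.2% of the control (log2 fold change -0.64, standard error 0.08, adjusted p = 0.00115 from limma).

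Slc25a15, the ornithine carrier of the urea cycle, was at 1.49, 1.42 and 1.58 FPKM with siSox9 and 2.97, 2.93 and 2.50 FPKM with siNC. All siSox9 libraries were below all controls, at 203 to 215 against 349 to 415 recovered reads, and the mean was 53.4% of the control (log2 fold change -0.60, standard error 0.07, adjusted p = 0.000937 from limma). Both calls held in all 14 alternatives run on these genes. Slc25a48 is on the + strand of chromosome 13 from 56438355 to 56474239 and Slc25a15 on the - strand of chromosome 8 from 22375551 to 22398597. The 250 bases before their RefSeq starts (GRCm38.p6, chr13:56438105-56438354, + strand, and chr8:22398622-22398871, - strand, the latter 24 bases outside the GENCODE start) are shown as the sequences upstream of the 2 tested members with the lowest levels relative to control, and each holds 2 GC boxes and no CCAAT box.
Slc25a48: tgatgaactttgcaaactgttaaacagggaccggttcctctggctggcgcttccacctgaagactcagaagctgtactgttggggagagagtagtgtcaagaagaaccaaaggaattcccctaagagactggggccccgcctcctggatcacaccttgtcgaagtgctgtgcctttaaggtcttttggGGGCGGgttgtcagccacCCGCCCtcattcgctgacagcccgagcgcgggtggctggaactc
Slc25a15: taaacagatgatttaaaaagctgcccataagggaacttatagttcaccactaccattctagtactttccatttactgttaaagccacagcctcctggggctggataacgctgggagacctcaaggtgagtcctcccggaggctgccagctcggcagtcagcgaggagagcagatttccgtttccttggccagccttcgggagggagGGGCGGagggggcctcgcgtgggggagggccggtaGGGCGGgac

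Slc25a29, which carries arginine and lysine, was at 0.985, 1.63 and 1.04 FPKM with siSox9 and 1.72, 1.91 and 1.98 FPKM with siNC. Replicate 2 of siSox9 lay close to the controls, and the call (log2 fold change -0.38, adjusted p = 0.0437 from limma) was lost in 10 of 14 alternatives, where limma's adjusted p ran from 0.00877 to 0.136. Leaving out siSox9 replicate 1 (0.124) or 3 (0.122), or siNC replicate 1 (0.0554), 2 (0.107) or 3 (0.121), was enough. Slc25a47, which lies 162 bases from Slc25a29 on the other strand of chromosome 12, was at 1.196 and 1.29 FPKM with overlapping groups.

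The remaining members of the group did not pass. Slc25a20, the carnitine/acylcarnitine carrier of fatty acid oxidation, was at 5.49 to 5.67 FPKM with siSox9 and 5.81 to 6.75 FPKM with siNC (log2 fold change -0.15, adjusted p = 0.0696 from limma), and the branched-chain amino acid carrier Slc25a44 at 10.4 to 10.8 and 11.2 to 11.9 FPKM (-0.11, adjusted p = 0.0575 from limma). Neither pair of ranges overlapped. Of the glutathione carriers, Slc25a39 was at 34.1 and 34.97 FPKM and Slc25a40 at 2.22 and 1.99 FPKM. Slc25a38, the glycine carrier of heme synthesis, and Slc25a45 differed by -0.04 and 0.07.

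Among the carriers of cofactors and nucleotides, 1 of 9 rose and none fell, where 12.8% and 17.6% of all genes tested did. Slc25a16, linked to coenzyme A in mitochondria, was at 3.77, 3.61 and 4.01 FPKM with siSox9 and 2.87, 3.003 and 3.33 FPKM with siNC, from 440 to 465 and 342 to 397 recovered reads. The lowest siSox9 library was above the highest control (log2 fold change 0.24, adjusted p = 0.0220 from limma). In 6 of 14 alternatives it missed the threshold (limma adjusted p from 0.00711 to 0.069 over the 14), among them the fits without siSox9 replicate 1 (0.0594) or 3 (0.0686) and without siNC replicate 1 (0.0527) or 2 (0.0634).

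The pyrimidine nucleotide carrier Slc25a33, with a difference of 0.15 on the log2 scale, and the coenzyme A carrier Slc25a42, with 0.08, did not pass. Slc25a17, the peroxisomal member, was at 40.9 ± 1.55 FPKM (SD, n = 3) in siSox9 cells and 38.9 ± 1.04 FPKM (SD, n = 3) in siNC cells. The NAD carrier Slc25a51 was at 16.6 and 16.4 FPKM. With siSox9 and siNC, Slc25a36 was at 7.56 and 7.31 FPKM, Slc25a32 at 5.4 and 4.90 FPKM and Slc25a26 at 2.17 and 1.97 FPKM. In these carriers the groups overlapped. In Slc25a33 the siNC replicate 1 value of 0.811 FPKM stood apart from 1.51 and 1.56 FPKM in the other controls, and its standard error of 0.14 was the largest among members that did not pass.

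Neither of the mitoferrins, which bring iron into the matrix, passed: Slc25a37 was at 15.8 and 15.1 FPKM and Slc25a28 at 8.02 and 8.06 FPKM. Of the members that act at the outer membrane or have no settled substrate, Slc25a46, an outer membrane protein of mitochondrial dynamics, was at 15.1 and 13.9 FPKM (log2 fold change 0.11). Slc25a43 was at 5.94 to 7.01 FPKM with siSox9 and 5.36 to 5.83 FPKM with siNC, without overlap (0.16, adjusted p = 0.0853 from limma).

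**Figure D2:**
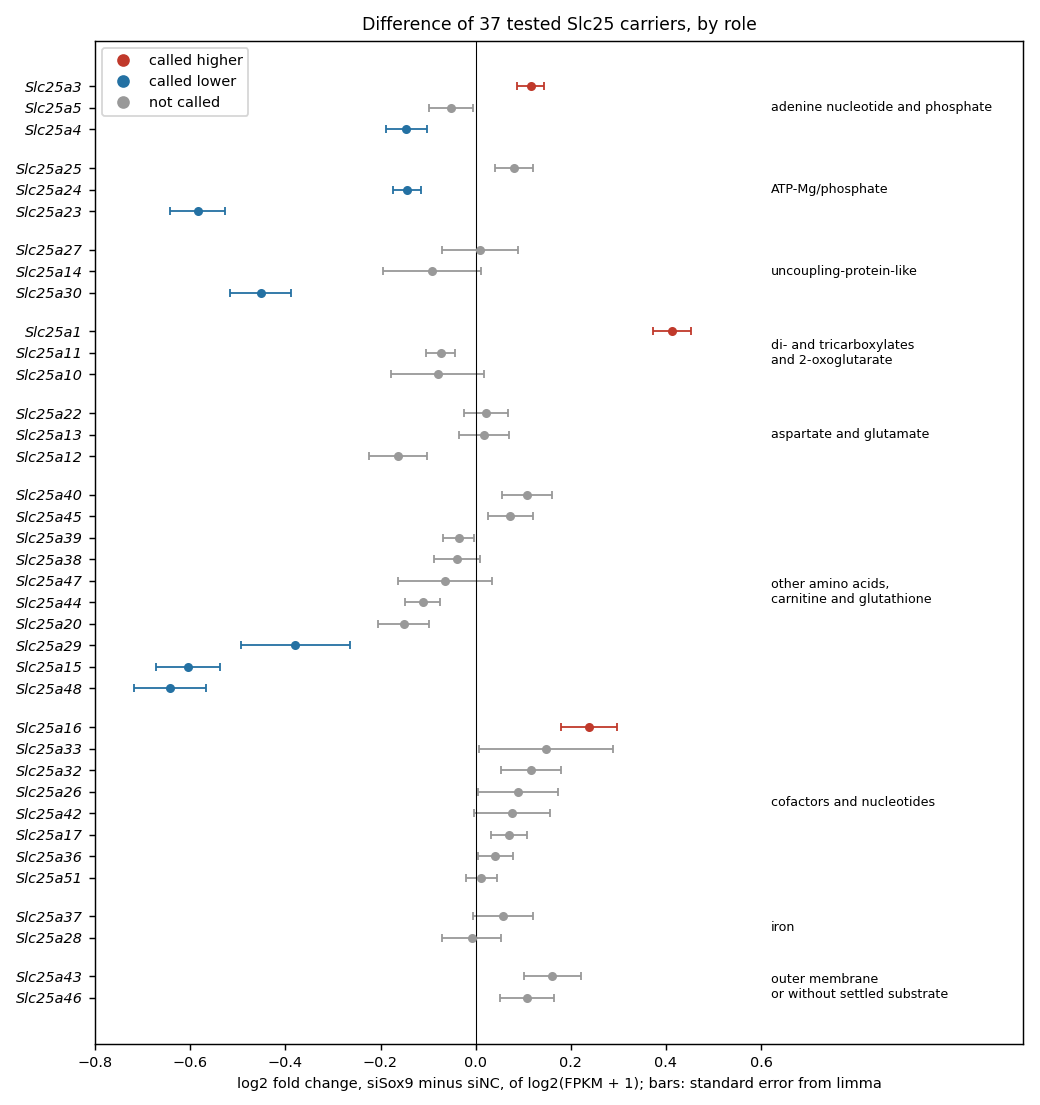
Log2 fold change (siSox9 minus siNC, log2(FPKM + 1) scale) with limma's standard error of 37 of the 38 tested carriers, grouped by what they carry; red and blue mark members called higher and lower. Slc25a1 at 0.41 stands alone on the right, and Slc25a48, Slc25a15, Slc25a23, Slc25a30 and Slc25a29 lie between -0.64 and -0.38 on the left.

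**Figure D3:**
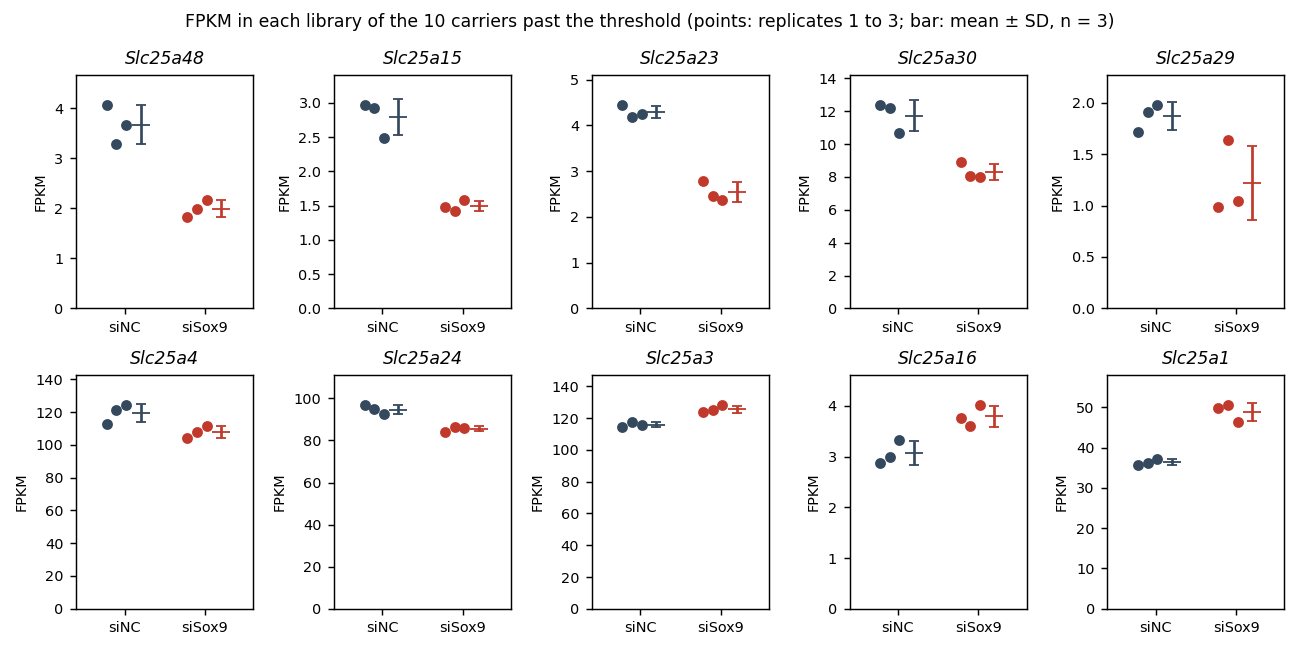
FPKM from 0 in each library of the 10 carriers past the threshold, with the mean and SD of 3 libraries beside the points. The gap between groups is wide in Slc25a48, Slc25a15, Slc25a23, Slc25a30 and Slc25a1 and narrow in Slc25a4, while Slc25a29 has 1 siSox9 library at 1.63 FPKM, near the controls.

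The 28 tested members that did not pass had log2 fold changes from -0.16 to 0.16, with standard errors of 0.03 to 0.14. A miss of the threshold does not show that their levels were equal. In 6 of the 28 (Slc25a11, Slc25a12, Slc25a20, Slc25a40, Slc25a43 and Slc25a44) the groups did not overlap. Over all genes tested, whether they passed or not, 46.3% had groups without overlap. No share over the genes that missed the threshold was taken.

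The untested members had means under 1 FPKM in these cells. Slc25a21, the oxoadipate carrier, had 46 to 69 recovered reads per library, and Slc25a53 had 88, 97 and 96 with siSox9 against 62, 79 and 78 with siNC. The reads of Slc25a53 are spread over 7963 exon bases. The tested Slc25a33 had 38 to 82 reads over 1887 exon bases. Slc25a18, a glutamate carrier, had 3 to 9 reads. Slc25a2 (0 to 5 reads), Slc25a34 (0 to 6), Slc25a54 (0 to 2) and Slc25a31, the ADP/ATP carrier of testis (0 to 2), were at the limit of detection. No read was assigned to Slc25a41 in any library, which at 3 reads allows up to 0.0876 to 0.0943 FPKM, for counting error only. Slc25a41 and Slc25a23 lie 2056 bases apart on chromosome 17, and Slc25a54 and Slc25a24 6461 bases apart on chromosome 3, so in each pair an ATP-Mg/phosphate carrier with reads in every library has a near-silent neighbour.

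The upstream sequences were compared over the 36 members with a RefSeq window of 250 bases. Not all windows lie upstream of the listed gene. In Slc25a47, Slc25a11 and Slc25a39 the RefSeq start was 15083, 440 and 429 bases from the GENCODE start, and the window lies inside the gene. Among members that passed, the largest offsets were 222 bases in Slc25a4 and 92 bases in Slc25a3, whose windows lie partly inside. GC boxes were in 24 of these windows (66.7%), against 32.7% of all 32851 windows, and CCAAT boxes in 16 (44.4%) against 33.8%. All windows include genes not tested here and several windows for some genes, whereas each member has 1 window. No share over the tested genes alone was taken. The SOX core was in 0 of 36, against 9.4% of all windows. Among the 10 members that passed the test, 8 windows held a GC box and 5 a CCAAT box. Among the 26 that did not pass or were not tested, 16 held a GC box and 11 a CCAAT box. Median G and C content was 64.6% in the former and 57.4% in the latter. The median G and C content was 58.6% in the members' windows and 52.4% in all, beside which the shares of GC boxes and of the SOX core are to be read. These are counts of letters in short windows and say nothing of binding.

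A match to the seed of siSox9 (bases 2 to 8 of its antisense strand) was looked for in the longest annotated 3′ UTR per gene. It was found in 4 of 37 tested members with such a UTR (10.81%), against 8.48% of all tested genes. Slc25a15 and Slc25a23, which fell, hold a match, as do Slc25a27 and Slc25a32, which did not pass. Across all genes, 16.17% of those that fell, 4.42% of those that rose and 7.12% of those that did not pass held one. The part of the seed in the values of Slc25a15 and Slc25a23 was not tested. Slc25a48, Slc25a30, Slc25a29, Slc25a4 and Slc25a24, which also fell, have no match.

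Of the TIM22 pathway, which brings carriers into the inner membrane, 1 of 12 tested genes rose and 1 fell. Among all genes tested these shares were 12.8% and 17.6%. Timm22, the channel of the insertion complex, was at 7.08 ± 0.329 FPKM (SD, n = 3) in siSox9 cells and 8.32 ± 0.319 FPKM (SD, n = 3) in siNC cells (log2 fold change -0.21, adjusted p = 0.0137 from limma). Tomm22, an import receptor of the outer membrane, was at 85.95 and 76.7 FPKM (0.16, adjusted p = 0.0451 from limma). The median of the list was 0.001, against -0.014 for all genes.

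Mitochondrial transporters and related proteins that do not carry an Slc25a name were followed from a list of 35, of which 27 were tested, 2 rose and 5 fell. Of all genes tested, 12.8% rose and 17.6% fell. The list holds Ucp1, Ucp2, Ucp3, Mtch1 and Mtch2, which were kept out of the members by their symbols alone. They are therefore not in the sums and counts of members above. Mcub, the inhibitory subunit of the calcium uniporter, fell from 8.76 to 4.23 FPKM (log2 fold change -0.90, adjusted p = 8.9e-05 from limma). Sfxn2, Vdac1, Mtch1 and Micu3 fell by 0.29, 0.18, 0.18 and 0.16 on the log2 scale. Sfxn3, a sideroflexin that carries serine, rose from 36.4 to 45.9 FPKM (0.33, adjusted p = 0.000698 from limma), and Ghitm, a proton-linked protein of the inner membrane, by 0.15. The median of this list was -0.04, against -0.014 for all genes.

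**Figure D4:**
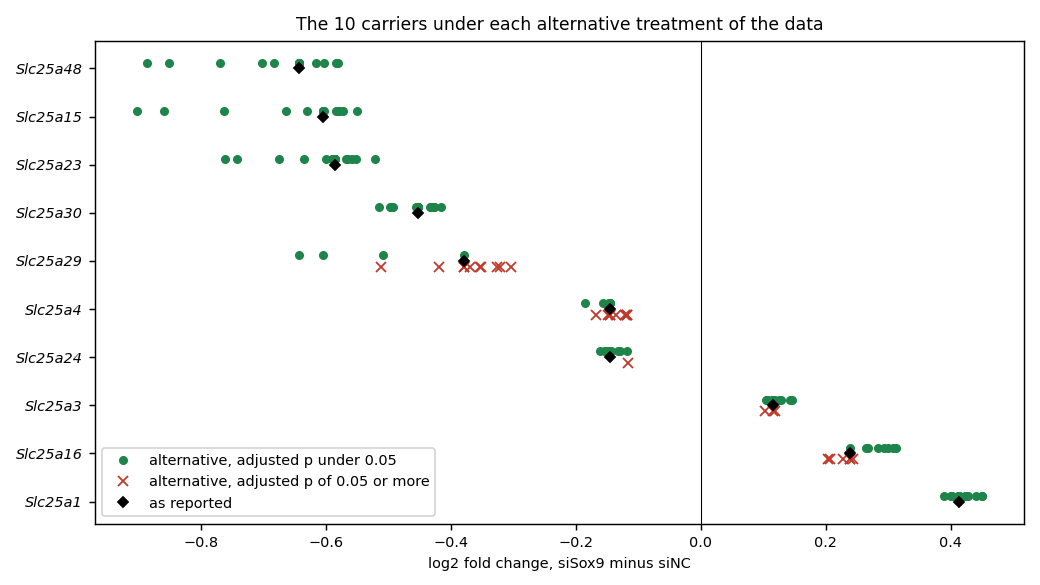
Log2 fold change of the 10 carriers as reported (diamonds) and under each alternative treatment of the data, including leaving out 1 library (circles: adjusted p under 0.05; crosses: 0.05 or more). Slc25a1, Slc25a15, Slc25a23, Slc25a30 and Slc25a48 show circles only, whereas Slc25a29 has 10 crosses and Slc25a4 has 9; no value crosses 0.

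Over the alternatives, Slc25a1, Slc25a15, Slc25a23, Slc25a30 and Slc25a48 passed in every one that could be run on them, and the other 5 lost the call in at least 1. Without siSox9 replicate 3, the number of members that rose dropped from 3 to 1, with Slc25a1 left. When the values were rescaled to TPM the members that fell numbered 4 instead of 7, with the calls of Slc25a4, Slc25a24 and Slc25a29 lost.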

How the data were processed

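RNA-Seq was measured in 6 libraries, 3 with siSox9 and 3 with siNC, grouped by the labels. The authors deposited FPKM values per gene; per the labels' processing notes Bowtie2 2.2.3, HISAT2 2.1.0, TopHat2 and mm9 were named without roles, whereas 93.3% of the 30246 genes shared with GENCODE M21 have its GRCm38 position. The counter, annotation and use of strand are not given in the sources used here. The knockdown columns carry the name of a non-control siRNA and were taken as siSox9, the only other siRNA in the labels. All 6 value columns were used.

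Reads were recovered from FPKM with M21 exon lengths (at least 91% of values above 0 whole within 0.02 reads in each library; 39 of 47 members whole in all). Genes averaging 1 FPKM or more entered a limma fit (version 3.58.1, R 4.3.3, lmFit and trended eBayes) on log2(FPKM + 1), with Benjamini-Hochberg adjustment over all 12009 genes, a threshold of 0.05 and no replicate block. The fit was also run on simulated reads with the same dispersion in every gene. That run does not check the calls under the spread of these libraries. The mean chi-square between same-group libraries was 1.87 to 6.83, and sampling noise gives 1, so none was a copy. Transcript similarity was searched with BLAST 2.17.0 (at least 95% identity over 100 bases). Upstream sequences are from RefSeq (GRCm38.p6).

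The members and lists were chosen with earlier results of these data known. A tested member that did not pass, which is counted with the rest, is not reported here by name. The others were described, with full values for those that passed; other genes named are from the lists. Alternatives were a pseudocount of 0.1, a minimum of 5 FPKM or none, quantile-normalized, median-centred or TPM values, a replicate block, an unmoderated model and leaving out each library; limma voom on recovered reads was added after the data were seen. Other steps used Python 3.11.15 with pandas 2.3.3, scipy 1.17.1, numpy 2.4.6 and, for plots, matplotlib 3.10.9.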

Additional observations from a re-analysis of the deposited data

How the results depend on the processing

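With a minimum of 5 FPKM, which tests fewer members, 3 members fell, and with TPM 4 fell. Leaving out 1 library gave 1 to 3 members that rose and medians over members of -0.0133 to 0.0142, and the median was 0.0277 with TPM, 0.0271 with median-centred and 0.0246 with quantile-normalized values. The scalings shifted the median of all genes by at most 0.027. Over all genes, 3650 passed, 1532 higher and 2118 lower, against 1959 higher and 1765 lower with median-centred values, 1812 and 1797 with quantile normalization, and 2424 passing without siSox9 replicate 2. No member that passed changed direction in any alternative. Among those that did not pass, Slc25a28 moved to 0.019 with TPM, 0.018 with median-centred and 0.015 with quantile-normalized values. Leaving out 1 library took Slc25a13 from -0.027 to 0.061, Slc25a51 from -0.001 to 0.028, Slc25a28 from -0.071 to 0.031, Slc25a38 from -0.078 to 0.003, Slc25a22 from -0.015 to 0.043, Slc25a14 from -0.18 to 0.019, Slc25a27 from -0.054 to 0.07, Slc25a33 from -0.014 to 0.234 and Slc25a47 from -0.144 to 0.021. The cause was not tested. With the replicate block 4 members rose and 7 fell, Slc25a43 being added (adjusted p = 0.0473 from limma), and 3262 genes passed. Same-numbered libraries did not deviate together (r = 0.065, -0.05 and 0.008), and not every library correlated best with its own number. With limma voom on recovered reads, chosen after the data were seen, 3 members rose and 9 fell, Slc25a12 and Slc25a20 being added. Calls were also gained by Slc25a40 with quantile-normalized values (0.178, adjusted p = 0.041 from limma), Slc25a43 without siSox9 replicate 1 (0.213, adjusted p = 0.044 from limma) and Slc25a20 without siNC replicate 1 (-0.202, adjusted p = 0.0175 from limma).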
